A study of Mus musculus with 6 samples.

Results

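The BCL2 family genes described here are 10 regulators of mitochondrial cell death: the pro-survival genes Bcl2, Bcl2l1 (BCL-XL) and Mcl1, the BH3-only death genes Bid, Bcl2l11 (BIM), Bad, Bbc3 (PUMA) and Pmaip1 (NOXA), and the effector genes Bax and Bak1. Members were the array's probe sets whose single gene symbol was a member of this list. The rule gave 29 of 34945 probe sets with a single symbol, for 9 of 18193 genes. No probe set carried Bax as its single symbol, so Bax was not analysed here.

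Expression had been measured on 6 mouse arrays, 3 per group. The group titled 2D11 (replicates 1, 2 and 4) is labelled CD8aa Tregs, and the series title calls these regulatory cells Qa-1 restricted, Qa-1 being a non-classical MHC molecule. The group titled OvacD8 (replicates 1, 2 and 3) is labelled as OT-1 T cells positive for CD8aa and TCRab; OT-1 is a transgenic receptor for an ovalbumin peptide. Both groups are labelled as T cell clones, and both were cultured with IL-2, antigen-presenting cells and the antigen of each. Each group may therefore be repeats of 1 clone, and the labels do not say whether replicates were separate cultures, so the p-values reflect no more than how these arrays vary, which may be technical. The comparison asks how expression in 2D11 differed from that in OvacD8.

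In the family, pro-survival proteins hold the effectors BAX and BAK in check at the outer mitochondrial membrane, and BH3-only proteins bind the pro-survival proteins or activate the effectors, after which cytochrome c is released and caspases are activated. In T cells, cytokines of the common gamma chain family sustain Bcl2 and Mcl1, and BIM removes T cells after stimulation or when cytokine is withdrawn. BID is cut by caspase-8 below death receptors and by granzyme B delivered by cytotoxic cells, and the cut form moves to mitochondria.

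All values are RMA values on a log scale, taken here as log2 because the sources used here do not state the base, and folds rest on that. They had been centred on each probe set's median over the 6 arrays, so they show differences between arrays and not levels, and a probe set near 0 on every array may lie at background. Differences are 2D11 minus OvacD8 with the standard error (SE) of a limma fit, n = 3 per group. A probe set or gene passed at an adjusted p under 0.05. An exact permutation test of 3 arrays against 3 cannot go below p = 0.1, so calls rest on the limma fit. That fit borrowed little variance information from other features (prior degrees of freedom 0.87 for probe sets and 0.98 for genes). Each p-value therefore rests mainly on the feature's own 6 values.

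The OvacD8 arrays were not alike. OvacD8-2 and OvacD8-3 correlated at 0.855 across probe sets spanning at least 0.1, and OvacD8-1 correlated with them at 0.298 and 0.353. The mean of the poly-A spike-in controls, bacterial transcripts added to follow labelling, lay between -0.09 and 0.73 on the 2D11 arrays, at 0.44 on OvacD8-1, and at -1.41 and -2.13 on OvacD8-2 and OvacD8-3. Of 7 T cell markers 1 passed, Cd8b1, the CD8 beta chain, which was lower in 2D11 (-2.36 ± 0.11, adjusted p = 0.00093). Since levels were removed, whether a marker was present or absent cannot be read. Because the antigen-presenting cells of the cultures could leave RNA, markers of other cells were summed per array. The sum of 7 myeloid and dendritic markers was 7.45 on OvacD8-1 and between -0.63 and 0.38 on the 2D11 arrays. On OvacD8-2 and OvacD8-3 it was -1.46 and -2.17. Fcgr3 (3.35), Lyz2 (2.70) and Csf1r (1.17) led the sum on OvacD8-1. Cd14 ran otherwise, at 0.20 on OvacD8-1 and at 0.66 and 0.75 on OvacD8-2 and OvacD8-3. Adgre1, Flt3 and Itgam stood at 0.01 on OvacD8-1. The sum of 5 B cell markers lay between -0.20 and 0.11 on the 6 arrays. The part of other cells, or of the difference in spike-in signal, in the results below was not tested. Results are therefore given with and without OvacD8-1 where it changes a call.

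Of the members, Bid was lower in 2D11 and no other member passed. Among the 29 probe sets, 0 passed as higher and 1 as lower, against 4.06% of all probe sets that passed in either direction. Among the 9 genes, taken as the mean of their probe sets, 0 were higher and 1 was lower, against 6.67% of all genes. The groups did not overlap in 9 of the 29 probe sets (31.0%, against 20.3% of all probe sets): 2 of Bid, 2 of Bcl2l11, 4 of Mcl1 and 1 of Bcl2l1. They did not overlap in 3 of the 9 genes, Bid, Bcl2l11 and Mcl1, against 23.3% of all genes. The median difference was -0.06 over the 9 genes and 0.01 over all genes.

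**Figure D1:**
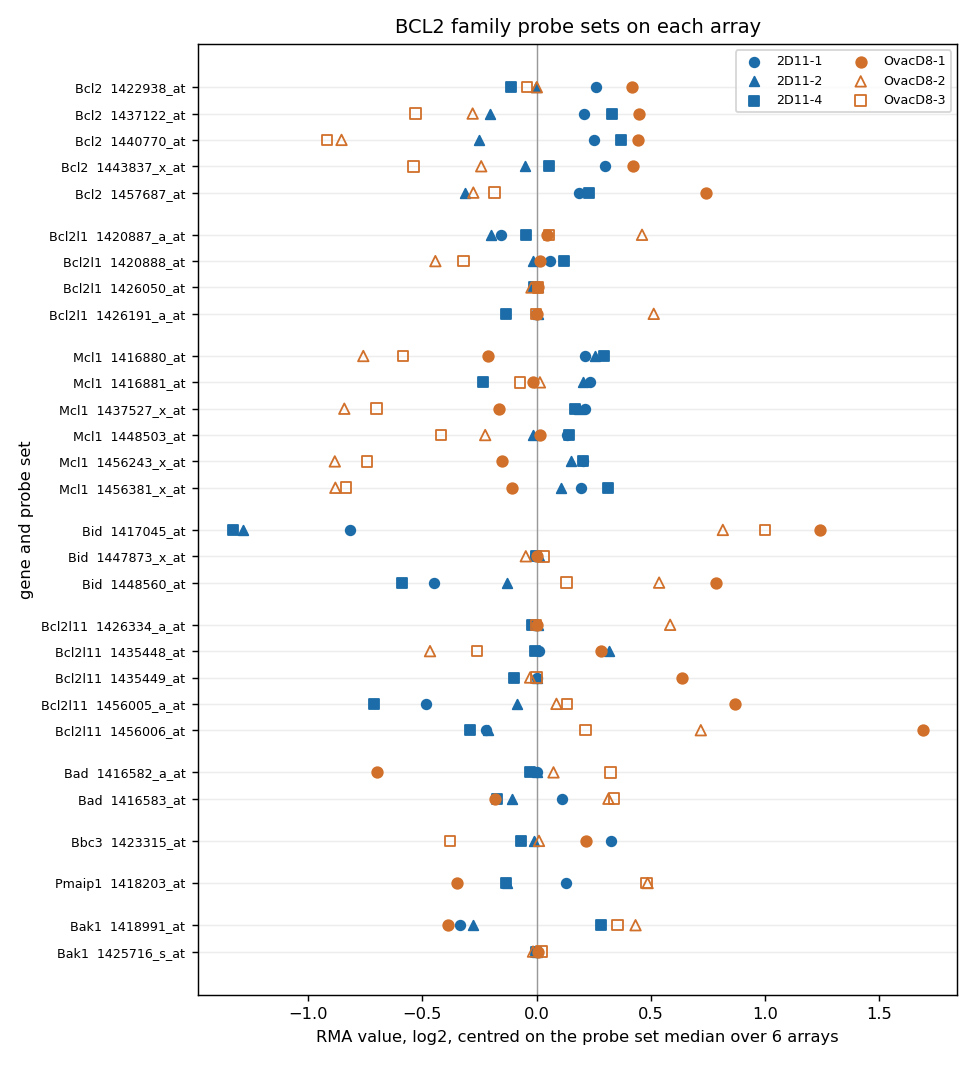
Each row is a BCL2 family probe set and each point its centred log2 RMA value on 1 array, blue for 2D11 and orange for OvacD8, with the shape giving the replicate. The 2D11 values of the Bid probe set 1417045_at lie between -1.33 and -0.82 and the OvacD8 values between 0.82 and 1.24, while OvacD8-1 (filled orange) has the highest value in all 5 Bcl2 rows.

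The groups did not overlap in 33.3% of member genes, against 23.3% of all genes, and only Bid passed. Non-overlap therefore served only to choose which sequences to print. The upstream sequences of those 3 genes, Bid, Bcl2l11 and Mcl1, are shown. They are the 250 bases before the first RefSeq start of each gene in GRCm38.p6, in the direction of transcription, with motif matches in capitals: Bid at chr6:120916825-120917074 (minus strand), Bcl2l11 at chr2:128125788-128126037 (plus strand) and Mcl1 at chr3:95658471-95658720 (plus strand). The capitals mark the GC box GGGCGG, the CCAAT box CCAAT, the forkhead core TAAACA and the STAT5 element TTCNNNGAA on either strand. These 4 were kept for marking after 13 motifs had been searched on both strands. The other 9 included the E box CACGTG, the CRE core TGACG, the ETS site CCGGAAG, the TATA box TATAAA and the YY1 site. They also included a longer forkhead site, a STAT site with wider spacing, the NRF1 site and a string of paired p53 core letters. That string sets the core letters closer together than a p53 element does, so it is not a p53 site.
Bid: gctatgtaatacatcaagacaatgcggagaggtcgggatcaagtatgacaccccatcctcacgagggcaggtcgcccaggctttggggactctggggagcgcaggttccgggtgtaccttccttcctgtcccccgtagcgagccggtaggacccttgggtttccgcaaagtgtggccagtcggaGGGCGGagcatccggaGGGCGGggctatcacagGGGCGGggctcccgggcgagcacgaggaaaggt
Bcl2l11: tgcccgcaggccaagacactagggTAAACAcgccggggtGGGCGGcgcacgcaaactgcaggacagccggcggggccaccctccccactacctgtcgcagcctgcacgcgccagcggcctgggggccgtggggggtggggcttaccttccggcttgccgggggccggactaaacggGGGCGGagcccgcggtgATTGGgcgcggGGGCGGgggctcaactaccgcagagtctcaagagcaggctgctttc
Mcl1: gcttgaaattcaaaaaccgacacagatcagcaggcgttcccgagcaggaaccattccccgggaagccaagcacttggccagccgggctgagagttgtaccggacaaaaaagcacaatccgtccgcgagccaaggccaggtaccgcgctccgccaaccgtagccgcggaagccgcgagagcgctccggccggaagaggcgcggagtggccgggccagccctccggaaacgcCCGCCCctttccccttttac

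The Bid sequence held 3 GC boxes, all on the printed strand and in the part nearer to the start, and none of the other 12 motifs. The Bcl2l11 sequence held 3 GC boxes, 1 CCAAT box read on the opposite strand and 1 forkhead core, the element bound by FOXO factors. Mcl1 held 1 GC box, on the opposite strand. Bcl2l11 and Mcl1 each held 1 ETS site, and none of the 3 sequences held any of the remaining 8 motifs that are not marked. Whether these sequences held a p53 site was not tested. None of the 3 sequences held the STAT5 element, which says only that these letters are not in these windows. Over 32851 windows of the same length, 32.7% held a GC box, 33.8% a CCAAT box, 12.0% a forkhead core, 7.02% the STAT5 element and 6.91% an ETS site. Each of the 8 unmarked motifs without a match was held by between 0.664% and 17.8% of windows. The 3 sequences were rich in G and C, at 63.6% for Bid, 72.0% for Bcl2l11 and 64.4% for Mcl1, against a median of 52.4% over all windows. Windows of the other members stood at 76.4% for Bbc3, 74.8% for Bcl2, 62.8% for Bad, 58.4% for Bak1 and 47.6% for Bcl2l1. A GC box was held by 6 of the 8 members with a window. Neither trait therefore sets the 3 shown genes apart from other members. A match describes the letters and is not a measured binding site.

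Bid, the BH3-only link from death receptors and granzymes to mitochondria, was the member that passed. On probe set 1417045_at the 2D11 values were -0.82, -1.29 and -1.33, and the OvacD8 values were 1.24, 0.82 and 1.00. Every 2D11 array lay below every OvacD8 array, and the gap between the groups was wider than the spread within either. The difference was -2.16 ± 0.19, a 4.48-fold lower signal in 2D11 (95% interval -2.65 to -1.68, adjusted p = 0.00832). On probe set 1448560_at the 2D11 values were -0.45, -0.13 and -0.59, and the OvacD8 values were 0.79, 0.54 and 0.13. The groups again did not overlap, by a narrow margin between 2D11-2 and OvacD8-3, and the difference of -0.87 ± 0.21 did not pass (adjusted p = 0.124). The third probe set, 1447873_x_at, spanned 0.08 over the 6 arrays and carried no measurable difference (0.01 ± 0.03, adjusted p = 0.942).

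As the mean of its probe sets, Bid stood at -0.42, -0.47 and -0.64 in 2D11 and at 0.68, 0.43 and 0.39 in OvacD8, a difference of -1.01 ± 0.10 (2.01-fold, adjusted p = 0.0089). The flat probe set is part of this mean. Bid had the widest group difference of the 9 genes and lay at the 95.8th percentile of all genes by size of difference. With OvacD8-1 left out it was lower by -0.92 ± 0.08 (adjusted p = 0.00491). With the median of its probe sets in place of the mean, Bid did not pass (-0.87, adjusted p = 0.108). A fit that also adjusted for which side of the spike-in split an array fell on (the spike-in-adjusted fit) left Bid at -1.19 ± 0.10 (adjusted p = 0.0094); that fit in effect sets the 2D11 arrays against OvacD8-1 alone.

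**Figure D2:**
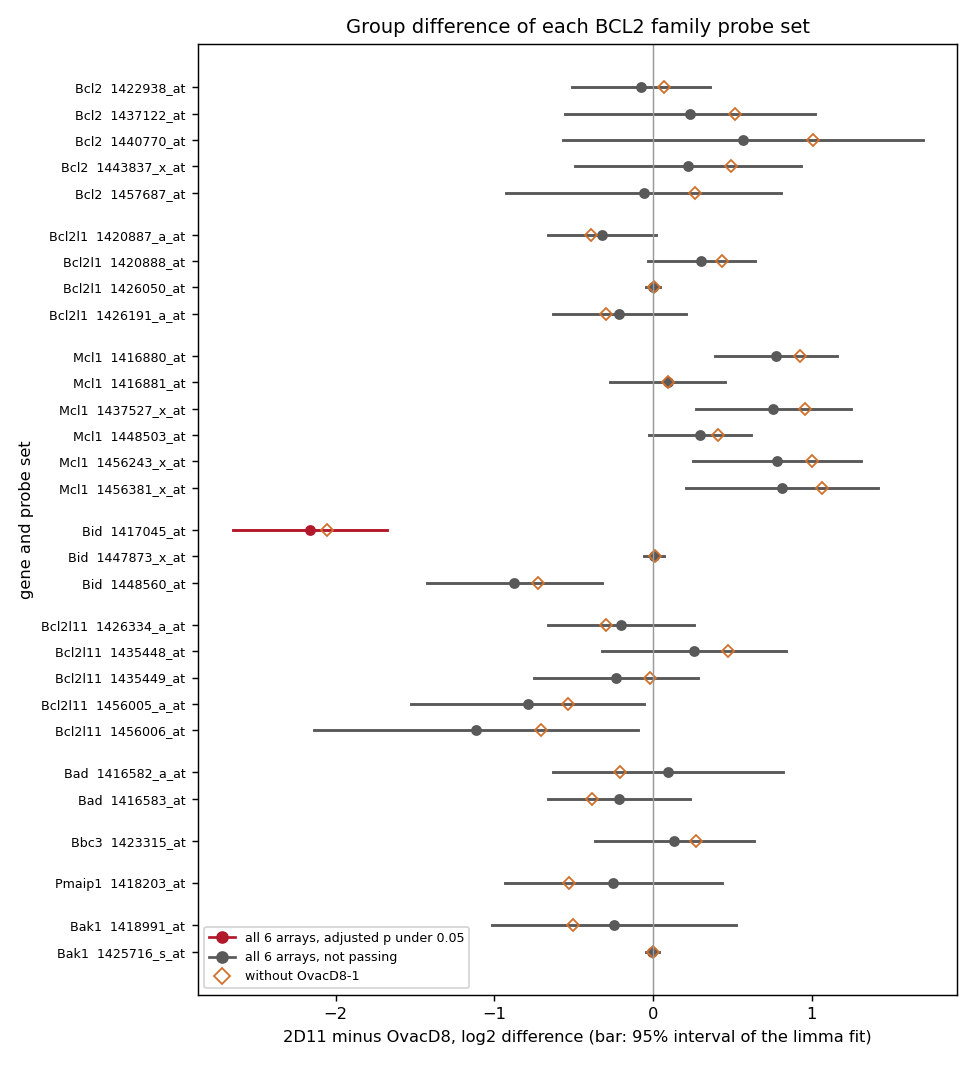
Filled points are the difference of each probe set, 2D11 minus OvacD8 on the log2 scale over all 6 arrays, with the 95% interval of the limma fit; open diamonds are the difference without OvacD8-1. The Bid probe set 1417045_at, in red at -2.16, passed over all arrays, and the diamonds of the Mcl1 probe set 1456381_x_at (1.06) and of the Bcl2 probe set 1440770_at (1.01) lie farther from 0 than their filled points.

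Bcl2l11, which encodes BIM, had lower 2D11 values than OvacD8 values on its most variable probe sets and did not pass. On 1456006_at the 2D11 values were -0.22, -0.21 and -0.29, and the OvacD8 values were 1.69, 0.72 and 0.21. The 2D11 arrays were close together and below all OvacD8 arrays, which were spread out with OvacD8-1 at the top. The difference was -1.12 ± 0.39 (adjusted p = 0.266). On 1456005_a_at the 2D11 values were -0.48, -0.09 and -0.71, against 0.87, 0.09 and 0.13 in OvacD8, and the difference was -0.79 ± 0.28 (adjusted p = 0.274). OvacD8-1 was again the highest array, as it was on 3 of the 5 Bcl2l11 probe sets. The other 3 probe sets differed by between -0.23 and 0.26, and 1435448_at ran the opposite way (0.26 ± 0.22).

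Over its 5 probe sets, the Bcl2l11 mean was -0.14, 0.01 and -0.23 in 2D11 and 0.70, 0.18 and 0.02 in OvacD8. The groups stood apart by a small gap between 2D11-2 and OvacD8-3, and the difference of -0.42 ± 0.19 did not pass (adjusted p = 0.341). Without OvacD8-1 it stood at -0.22 (adjusted p = 0.244), and the spike-in-adjusted fit gave a pass at -0.82 ± 0.12 (adjusted p = 0.0346). OvacD8-1, the array with the highest Bcl2l11 value, also had the highest myeloid marker sum; the part of those cells in this difference was not tested.

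Mcl1, a pro-survival protein with a short life that T cells need for survival, was the member nearest to passing on the higher side in 2D11. On 1416880_at the 2D11 values were 0.21, 0.26 and 0.30, and the OvacD8 values were -0.21, -0.76 and -0.59. The 2D11 arrays were tightly grouped above all OvacD8 arrays, among which OvacD8-1 lay nearest to 2D11. The difference was 0.77 ± 0.15, a 1.71-fold higher signal that did not pass (adjusted p = 0.0704). The probe sets 1437527_x_at, 1456243_x_at and 1456381_x_at gave differences of 0.76, 0.78 and 0.81 (adjusted p = 0.130 to 0.179). The suffix of these 3 marks probes that can match other transcripts, and they may share probes, so they are not independent measurements. The other 2 probe sets, 1448503_at and 1416881_at, differed by 0.30 ± 0.12 and 0.09 ± 0.14, and their groups overlapped.

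As a gene mean, Mcl1 stood at 0.20, 0.15 and 0.15 in 2D11 and at -0.11, -0.60 and -0.56 in OvacD8, a difference of 0.59 ± 0.14 (1.50-fold, adjusted p = 0.095). The fit without OvacD8-1 gave 0.74 ± 0.03 (adjusted p = 0.00081), and the spike-in-adjusted fit gave 0.27 ± 0.04 (adjusted p = 0.0284). Over all arrays Mcl1 did not pass. The 3 fits reuse the same arrays, and every 2D11 array lay above every OvacD8 array, so their shared sign was given in advance. In the fit without OvacD8-1, 17.2% of all genes passed.

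Bcl2, the founding pro-survival gene, did not separate the groups, and OvacD8-1 stood away from the other OvacD8 arrays. Its widest probe set, 1440770_at, read 0.25, -0.25 and 0.37 in 2D11 and 0.44, -0.85 and -0.92 in OvacD8. OvacD8-1 was the highest of the 6 arrays on all 5 Bcl2 probe sets. As a gene mean Bcl2 stood at 0.24, -0.17 and 0.17 in 2D11 and at 0.49, -0.33 and -0.44 in OvacD8. The difference was 0.18 ± 0.29 with a 95% interval from -0.56 to 0.92 (adjusted p = 0.875), which is wide enough to hold a change in either direction. It was 0.47 ± 0.14 without OvacD8-1 (adjusted p = 0.121) and -0.41 ± 0.18 in the spike-in-adjusted fit (adjusted p = 0.363), neither of which passed. The share of other cells in the high value of OvacD8-1 was not tested.

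Bcl2l1, whose long form BCL-XL protects activated T cells, gave probe sets that ran against each other. On 1420888_at the 2D11 values were 0.06, -0.01 and 0.12 and the OvacD8 values 0.01, -0.44 and -0.32, a difference of 0.30 ± 0.13 (adjusted p = 0.363). On 1420887_a_at the 2D11 values were -0.16, -0.20 and -0.05 and the OvacD8 values 0.05, 0.46 and 0.06, a difference of -0.32 ± 0.13 (adjusted p = 0.340) with groups that did not overlap. The first of these was higher in 2D11 and the second lower, and the 2 carry the same transcript accession in the annotation. The other 2 probe sets, 1426191_a_at and 1426050_at, differed by -0.21 and by less than 0.01 in size. The mean over the 4 was -0.06 ± 0.05 (95% interval -0.19 to 0.08, adjusted p = 0.713), an average of opposed probe sets that does not describe any of them.

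The remaining BH3-only genes, Pmaip1, Bad and Bbc3, did not pass over all arrays. Pmaip1, which encodes the MCL1 antagonist NOXA, read 0.13, -0.13 and -0.13 in 2D11 and -0.35, 0.49 and 0.48 in OvacD8 on its single probe set. OvacD8-2 and OvacD8-3 were the 2 highest arrays and OvacD8-1 the lowest. The difference was -0.25 ± 0.26 (adjusted p = 0.755 in the gene fit). Without OvacD8-1, Pmaip1 passed as lower in the gene fit at -0.53 ± 0.10 (adjusted p = 0.0342), and the spike-in-adjusted fit gave 0.30 ± 0.12 (adjusted p = 0.303), a value of opposite sign.

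Bad, a sensitizer controlled by phosphorylation, had its lowest value of the 6 arrays on OvacD8-1, as Pmaip1 did. Its probe set 1416582_a_at read 0.00, 0.00 and -0.03 in 2D11 and -0.70, 0.07 and 0.32 in OvacD8, and 1416583_at read 0.11, -0.11 and -0.17 in 2D11 and -0.18, 0.31 and 0.34 in OvacD8. The 2D11 arrays lay between OvacD8-1 and the other OvacD8 arrays on both probe sets. On the second, 2D11-4 lay only just above OvacD8-1. The gene mean differed by -0.06 ± 0.22 (95% interval -0.62 to 0.50, adjusted p = 0.934). Bbc3, a p53-induced gene encoding PUMA, read 0.32, -0.01 and -0.07 in 2D11 and 0.21, 0.01 and -0.38 in OvacD8, with overlapping groups and a difference of 0.13 ± 0.19 (adjusted p = 0.847 in the gene fit).

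Bak1 was the only effector measured. Its probe set 1418991_at read -0.34, -0.28 and 0.28 in 2D11 and -0.39, 0.43 and 0.35 in OvacD8. Both groups held low and high arrays, and the difference of -0.25 ± 0.30 did not pass (adjusted p = 0.831). The other Bak1 probe set, 1425716_s_at, spanned 0.04 over the 6 arrays and may lie at background.

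**Figure D3:**
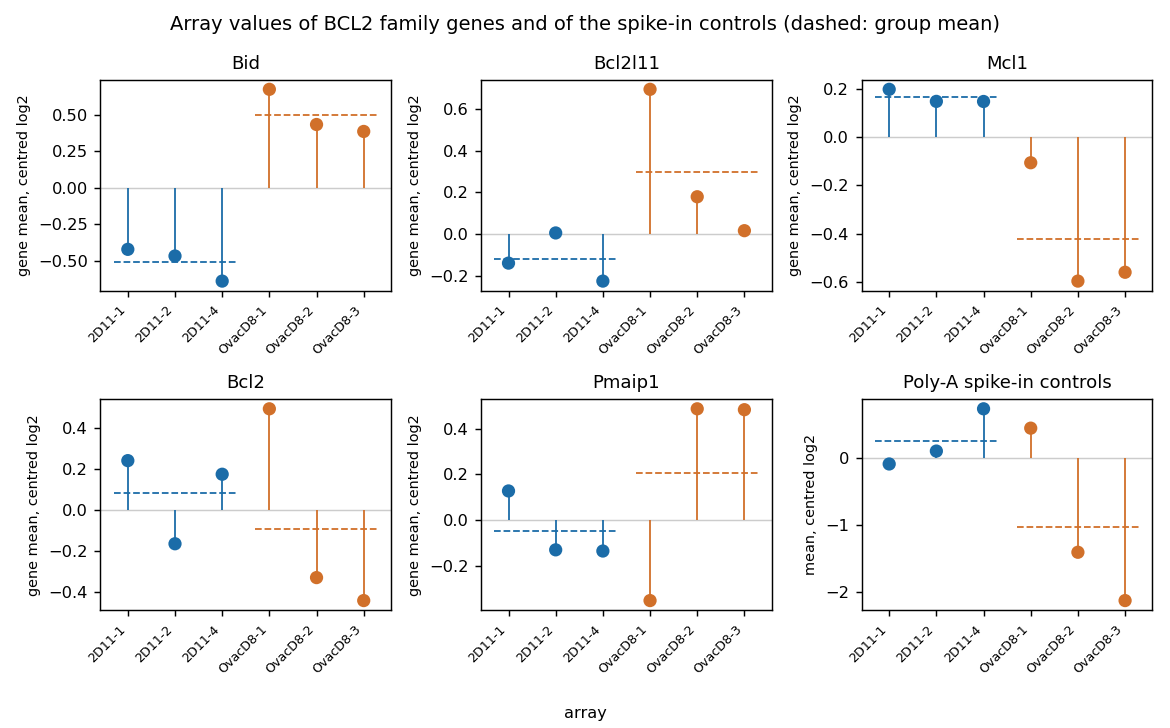
Each panel plots the centred log2 value on the 6 arrays, 2D11 in blue and OvacD8 in orange, with dashed group means; the first 5 panels are gene means and the last is the mean of 27 poly-A spike-in probe sets. Bid keeps the groups apart on every array, while OvacD8-1 departs from OvacD8-2 and OvacD8-3 in Bcl2 (0.49 against -0.33 and -0.44) and Pmaip1 (-0.35 against 0.49 and 0.48), as it does in the spike-in controls.

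By role, the 15 probe sets of the 3 pro-survival genes had a median difference of 0.23, with 10 on the higher side and 5 on the lower. Of the 10 higher, 6 were of Mcl1, 3 of Bcl2 and 1 of Bcl2l1, and of the 5 lower, 2 were of Bcl2 and 3 of Bcl2l1. The 12 probe sets of the 5 BH3-only genes had a median of -0.22, with 8 on the lower side and 4 on the higher. Of the 8 lower, 4 were of Bcl2l11, 2 of Bid, 1 of Bad and 1 of Pmaip1. These are descriptions of probe sets that share genes, and of the 27 only the Bid probe set 1417045_at passed. The array OvacD8-1 lay nearer to the mean of 2D11 than to the mean of OvacD8-2 and OvacD8-3 on 19 of the 26 member probe sets that spanned at least 0.1 (73.1%), against 51.7% of all probe sets with that span. Without OvacD8-1, 6 of 29 probe sets passed, 5 higher and 1 lower, against 10.6% of all probe sets: 4 of Mcl1, 1420888_at of Bcl2l1 and 1417045_at of Bid. In that fit 3 of 9 genes passed, Bid and Pmaip1 lower and Mcl1 higher, against 17.2% of all genes. In the spike-in-adjusted fit, 3 probe sets passed against 5.24% of all, 1 of Bid and 2 of Bcl2l11, and 3 genes passed against 7.48%, Bid, Bcl2l11 and Mcl1. In the fit without OvacD8-1 the groups coincide with the spike-in split, so the 2 cannot be told apart there.

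The genes whose pattern over the 6 arrays lay nearest to a member were found by root mean square distance after centring each gene on its mean. For Bid they were Luzp1 (distance 0.07 on the log2 scale, difference -0.995), Zfp827 (0.08, difference -0.999) and Cstf2t (0.10, difference -0.95). For Mcl1 they were Cog1 (0.04, difference 0.54), Abhd1 (0.05, difference 0.52) and Mapk1ip1 (0.05, difference 0.53). In the gene fit those near Bid passed (adjusted p = 0.0026, 0.0181 and 0.0128) and those near Mcl1 did not (0.0821, 0.115 and 0.181). These are descriptions over 6 arrays, with no statement on shared control.

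In a list of other BCL2 family genes and genes linked to the family, only Bcl2l2 passed. The linked genes, such as Bcap31, Tmbim6, Bnip1 and Bnip2, do not encode BCL2 proteins, so the counts are not for the family alone. Of 14 measured, 13 did not pass, 0 were higher and 1 was lower (median difference -0.09). The gene that passed was Bcl2l2, which encodes the pro-survival protein BCL-W. Its mean stood at -0.33, -0.44 and -0.38 in 2D11 and at 0.37, 0.53 and 0.44 in OvacD8, lower in 2D11 by -0.83 ± 0.05 (1.78-fold, adjusted p = 0.00227). The difference lay mainly on 1 of its 4 probe sets, 1423572_at, on which the 2D11 values were -1.27, -1.82 and -1.38 and the OvacD8 values 1.46, 1.27 and 1.48 (-2.89 ± 0.17, adjusted p = 0.00245), and the other 3 lay between -0.33 and 0.00. Bmf, a BH3-only gene tied to loss of attachment and to stress, and named after its values were seen, did not pass at -0.55 ± 0.11 (adjusted p = 0.0519). That difference lay on its probe set 1454880_s_at (-1.67 ± 0.31, adjusted p = 0.0648), while 1422995_at and 1458325_x_at both lay at 0.01. Bnip3, a mitochondrial gene induced by low oxygen and chosen after its values were seen, read -0.02, -0.24 and 0.02 in 2D11 and -0.34, 2.92 and 2.93 in OvacD8. On OvacD8-1, unlike the other OvacD8 arrays, it lay near the 2D11 values. It did not pass over all arrays (-1.91 ± 0.98, adjusted p = 0.395) and passed as lower without OvacD8-1 (-3.004, adjusted p = 0.00049).

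Caspases carry out cell death, some of them once the apoptosome has formed on released cytochrome c, and inhibitors of apoptosis restrain them or the signals that activate them. Of 17 measured, 15 did not pass, 2 were higher and 0 lower (median difference 0.14). Birc2, which encodes the ubiquitin ligase cIAP1 that restrains death signalling from TNF receptors, was higher by 0.81 ± 0.08 (1.75-fold, adjusted p = 0.0086). It read 0.29, 0.49 and 0.44 in 2D11 and -0.29, -0.50 and -0.41 in OvacD8. Dffa, the inhibitor of the caspase-activated nuclease, was higher by 0.27 ± 0.05 (adjusted p = 0.037). It did not pass in 4 of the 6 fits with an array left out (highest adjusted p = 0.124, without OvacD8-3). In the fit without OvacD8-1, 4 genes of this list passed as higher and 6 as lower, where 17.2% of all genes passed.

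Death receptors and their adaptors feed caspase-8, which cuts BID. Of 13 measured, 1 was higher, 1 was lower and 11 did not pass (median difference 0.00). Tnfsf10, the death ligand TRAIL, stood at -0.41, -0.57 and -0.87 in 2D11 and at 0.86, 0.57 and 0.49 in OvacD8, lower by -1.25 ± 0.16 (2.39-fold, adjusted p = 0.0163). Ripk3, the kinase of necroptosis, stood at 0.73, 0.41 and 0.51 in 2D11 and at -1.05, -0.55 and -0.41 in OvacD8, higher by 1.22 ± 0.19 (2.33-fold, adjusted p = 0.0307). Ripk3 did not pass in 5 of the 6 fits with an array left out (highest adjusted p = 0.112, without 2D11-1), nor did Tnfsf10 in 3 of them (highest adjusted p = 0.0731, without OvacD8-2).

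Of 15 measured p53 targets and regulators, 2 were higher, 1 was lower and 12 did not pass (median difference 0.01). Perp, an adhesion and death gene, was lower by -3.36 ± 0.46 (10.3-fold, adjusted p = 0.0204), with 2D11 values of -1.46, -1.29 and -1.11 against 1.11, 2.77 and 2.36. Ccng1, a cyclin gene induced by p53, was higher by 0.48 ± 0.09 (adjusted p = 0.0433), and Mdm4, an inhibitor of p53, by 0.13 ± 0.02 (adjusted p = 0.0439). Each of these 3 failed to pass in 5 of the 6 fits with an array left out, with highest adjusted p of 0.0876 for Perp, 0.150 for Ccng1 and 0.149 for Mdm4, without 2D11-1, 2D11-2 and OvacD8-3. Bbc3 and Pmaip1, which are among the members that p53 induces, did not pass over all arrays.

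Among 18 measured regulators of the family, 15 did not pass, 1 was higher and 2 were lower (median difference 0.06). Huwe1, a ubiquitin ligase that marks MCL1 for destruction, was higher in 2D11 by 0.55 ± 0.05 (1.46-fold, adjusted p = 0.00787), with probe sets from 0.01 to 1.16. Pim1, a kinase gene induced by cytokines that phosphorylates BAD, was lower by -0.69 ± 0.10 (1.61-fold, adjusted p = 0.0255). Foxo3, a forkhead factor that drives Bcl2l11 and Bbc3, was lower by -0.35 ± 0.06 (adjusted p = 0.0401), with probe sets from -0.63 to 0.01. Pim1 did not pass in 4 of the 6 fits with an array left out (highest adjusted p = 0.101, without 2D11-2) and Foxo3 in 5 (0.144, without OvacD8-2).

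Of 6 measured cytokine receptor genes upstream of the family, 4 did not pass, 0 were higher and 2 were lower (median difference -0.64). Il2ra, the high-affinity subunit for the IL-2 of the culture medium, was lower by -2.89 ± 0.14 (7.41-fold, adjusted p = 0.000958). Il21r, the IL-21 receptor, was lower by -1.19 ± 0.20 (adjusted p = 0.0376) and did not pass in 4 of the 6 fits with an array left out (highest adjusted p = 0.141, without OvacD8-2). Il7r, the receptor gene for IL-7, which sustains Bcl2, was also named after its values were seen. It stood at 0.96 ± 0.25 and did not pass (adjusted p = 0.109), and passed as higher without OvacD8-1 (1.23, adjusted p = 0.00228). Over the 6 lists, 13 of 81 distinct genes passed, 6 higher and 7 lower, a share of 16.0% against the 6.67% of all genes. In the fit without OvacD8-1, in which 17.2% of all genes passed, 35 of the 81 did. Of these, 3 were other family or linked genes (0 higher, 3 lower) and 10 caspases, apoptosome genes and inhibitors of apoptosis (4 higher, 6 lower). A further 4 were death receptors and adaptors (2 higher, 2 lower) and 6 p53 targets (4 higher, 2 lower). Regulators gave 8 (4 higher, 4 lower) and cytokine receptors 4 (1 higher, 3 lower). The lists were chosen with earlier results of these data known.

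**Figure D4:**
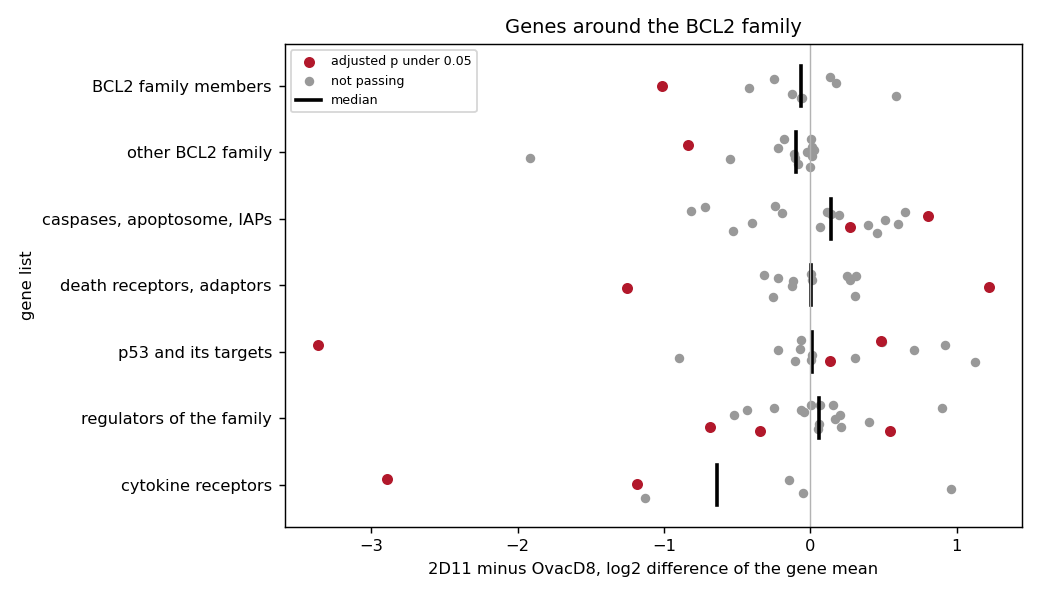
Each point is a gene's difference, 2D11 minus OvacD8 on the log2 scale, red where it passed and grey where it did not, and each black line is the median of its list; the vertical position within a list carries no meaning. Medians lie between -0.64 and 0.14, and the red points include Bid at -1.01, Bcl2l2 at -0.83, Perp at -3.36 and Birc2 at 0.81.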

How the data were processed

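The 6 arrays, each of 45101 probe sets, were grouped by sample title, 3 per group. The authors deposited 1 column of log-scale values per array, made with RMA per the submitters' processing notes. No version or log base is given in the sources used here, and the deposited values were taken as log2. Row medians lay within 5e-07 of 0, so levels had been removed, and how bright a gene was cannot be read. Of the probe sets, 64 controls were left out, and symbols came from GEO's platform annotation. The comparison used limma 3.58.1 in R 4.3.3 (lmFit, eBayes, two-sided) on 45037 probe sets, and on 18193 genes as the mean of their probe sets, with Benjamini-Hochberg adjustment over all. With 3 arrays a group, their number limits the precision. Every member probe set was named. List genes were named where they passed, up to 4 a list by size, and any other list gene is marked as named after its values were seen. The nearest patterns were sought for the 2 members with the lowest p. The members and lists were chosen with earlier results of these data known. Alternatives were each array left out, the replicate number as a block, other scalings, array weights (method chosen after their first output was seen), robust variances, an adjustment for the spike-in split, a filter on range, other thresholds and other ways to combine probe sets. Promoter windows are RefSeq's; windows were matched for 8 of the 9 genes by symbol. Figures were drawn with matplotlib 3.10.9.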

Additional observations from a re-analysis of the deposited data

How the results depend on the processing

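Bid 1417045_at kept its direction and passed under all 13 alternatives run on probe sets, including the replicate block (-2.08, adjusted p = 0.044); its adjusted p ran from 0.00156 to 0.0458. The Bid gene mean passed under 13 of 15 and not with the replicate block (-1.002, adjusted p = 0.0638) or the median of probe sets (0.108). With an array left out, 1 to 6 member probe sets, 1 to 3 member genes and 4 to 35 list genes passed, the highest counts without OvacD8-1. The same fits called 523 to 3129 of all 18193 genes and 811 to 4773 of all 45037 probe sets, again with the highest counts without OvacD8-1. The replicate block left 0 member genes and 2 list genes (limma), where it called 202 of all 18193 genes. Only numbers 1 and 2 occur in both groups, and deviations from the group means correlated at -0.03 and 0.21 for them, so the block is no evidence of pairing. Adjusting for the spike-in split left 3 member probe sets and 3 genes. Array weights by limma's default method gave a convergence warning and 17219 probe sets and 7391 genes passing in all, so they were replaced, after that output was seen, by its gene-by-gene method (4584 and 3848). The replacement gave 5, 2 and 36 for probe sets, genes and list genes. A range of at least 0.1 gave 2, 2 and 20, where 2962 of 29526 probe sets and 1608 of 12198 genes passed. An adjusted p under 0.1 gave 2, 2 and 23, and the share of all features at that threshold was not counted. The median of probe sets left 0 member genes, where 924 of all 18193 genes passed. The causes of these shifts were not tested.

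The sign turned in 29 of 374 alternative values of member probe sets, and none of the 29 passed. With the spike-in split these were Bad 1416583_at (0.13), Bak1 1418991_at (0.28), Bbc3 (-0.13), Bcl2 1437122_at (-0.34), 1440770_at (-0.32) and 1443837_x_at (-0.32), Bcl2l11 1435448_at (-0.17), Pmaip1 (0.30) and Bid 1447873_x_at (-0.00093). With array weights they were Bad 1416582_a_at (-0.16), Bcl2 1422938_at (0.12) and 1457687_at (0.21) and Bid 1447873_x_at (-0.015). With the replicate block they were Bak1 1425716_s_at (0.0050), Bcl2 1437122_at (-0.084) and Bcl2l1 1426050_at (0.0084). Array median centring and quantile normalization turned Bid 1447873_x_at (-0.00069 and -0.014). With an array left out, Bad 1416582_a_at ran from -0.21 to 0.30, Bak1 1425716_s_at from -0.014 to 0.0044, Bbc3 from -0.030 to 0.27, Bcl2 1422938_at from -0.18 to 0.071, Bcl2 1457687_at from -0.25 to 0.26, Bcl2l1 1426050_at from -0.010 to 0.0042 and Bid 1447873_x_at from -0.015 to 0.024.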
